A study of Mus musculus with 24 samples.

Results

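Platelet-derived growth factors (PDGF) and vascular endothelial growth factors (VEGF) and the receptors that bind them were followed in mouse pancreatic stellate cells (PSC), the fibroblast precursors of the pancreas. The genes were taken by name from the expression table. They were the 4 PDGF ligands Pdgfa, Pdgfb, Pdgfc and Pdgfd, the PDGF receptors Pdgfra and Pdgfrb, the VEGF ligand Vegfc and the co-receptors Nrp1 and Nrp2, which makes 9 of 53801 listed genes. PSC came from pooled pancreata of wild-type C57BL/6J mice aged 7 to 10 weeks and were grown without (control PSC) or with KPC cells, a single line of murine pancreatic cancer cells from a p48-Cre model. In standard co-culture (distant paracrine), the well floor carried the KPC cells and an insert membrane with 1 µm pores carried the PSC. In inverse co-culture (close paracrine), KPC cells grew on the underside of the membrane that carried the PSC and were there before the PSC were seeded. Sequenced RNA is that of the PSC, in 8 groups of 3 libraries (2 models, with and without KPC cells, 24 h and 72 h). All groups shared the wild-type genotype and, from the start of time counting, the medium. Standard PSC were seeded 24 h earlier in another medium and met the KPC cells when counting started. Inverse PSC were seeded 24 h earlier in the final medium. In inverse co-culture the KPC cells were then already present, so this co-culture lasted 24 h longer. Medium history, length of co-culture and model cannot be told apart. The RNA input was 450 ng in the standard model and 120 ng in the inverse model, so that input and model cannot be told apart.

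PDGF ligands form dimers that bring receptor chains together at the cell surface. The A and C chains act through the alpha receptor, the B chain through both receptors and the D chain mainly through the beta receptor. The C and D chains are secreted with an extra domain that proteases must remove. In fibroblasts and stellate cells these receptors drive growth and migration. Vegfc is a growth factor of lymphatic vessels. Neuropilins have no kinase of their own and bind VEGF beside its receptors, and class 3 semaphorins together with plexins.

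Counted fragments per library ranged from 15932736 to 24798761. The deposited unit is FPKM, the fragments of a gene scaled to its length and to the total of its library. Markers of stellate cells and fibroblasts (10 genes, summed) lay between 21500 and 38900 FPKM, with Pdpn at 0 in all libraries but 1 (0.0423 FPKM). Endothelial markers (8 genes) summed to at most 3.12 FPKM, and Pecam1 did not exceed 0.207 FPKM. Summed macrophage and leukocyte markers (8 genes) reached 1320 FPKM in 1 standard control at 72 h and did not exceed 85.9 FPKM in any inverse co-culture. Epithelial markers (8 genes) summed to 1.84 to 43.2 FPKM in the 24 h inverse co-cultures and to 1.5 to 8.17 FPKM in those of 72 h, against at most 0.587 FPKM in inverse controls. The sum of 43.2 FPKM was that of 24 h co-culture replicate 2, which had 11.6 FPKM of Krt19, 15.2 of Krt8 and 11.7 of Krt18. Of these 8 genes, 4 stayed under 1 FPKM in all 24 h inverse co-cultures and 5 in those of 72 h, against 8 of 8 in the controls of both times. Krt19 had 1.64, 11.6 and 2.53 FPKM in co-culture at 24 h and 1.83, 1.17 and 3.11 FPKM at 72 h. It alone of the 8 passed the filter on low values in these comparisons, which it did only through the co-cultures, where it was high. Of the surface markers, Epcam did not exceed 0.123 FPKM and Cdh1 not 0.948 FPKM in any inverse library. The 4 standard libraries numbered 1 stood apart from those numbered 2 and 3 in several of the 9 genes, and the standard differences of the 9 genes are also given without them, which was decided on seeing these values. In bulk RNA, fewer cells of a type and less RNA per cell cannot be told apart.

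To show the sequence next to the genes that moved, the bases before the transcription start are printed for Nrp2, which had the largest co-culture difference, and for Pdgfra, which moved the other way (RefSeq promoters, GRCm38.p6). Capitals mark a GC box (GGGCGG on either strand). The Nrp2 stretch covers chr1:62703067-62703284 and the Pdgfra stretch chr5:75152001-75152250, both on the plus strand, and neither reaches an annotated exon.
Nrp2: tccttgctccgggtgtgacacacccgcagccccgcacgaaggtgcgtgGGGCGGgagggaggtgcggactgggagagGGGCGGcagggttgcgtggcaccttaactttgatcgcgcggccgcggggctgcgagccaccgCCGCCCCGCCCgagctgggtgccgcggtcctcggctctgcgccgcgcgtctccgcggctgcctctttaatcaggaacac
Pdgfra: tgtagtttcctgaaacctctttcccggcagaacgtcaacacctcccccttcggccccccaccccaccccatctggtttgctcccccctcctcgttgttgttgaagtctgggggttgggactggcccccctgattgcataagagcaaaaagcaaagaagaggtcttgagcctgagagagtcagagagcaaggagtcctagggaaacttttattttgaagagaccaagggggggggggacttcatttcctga
The Nrp2 stretch held 4 GC boxes, 2 of which overlap by a base, and the Pdgfra stretch held none. Over the whole 250 bases before the start, Nrp2 had 5 GC boxes, Pdgfa and Vegfc 2 each, Nrp1 1, and Pdgfc, Pdgfd and Pdgfra none. Of 32851 RefSeq promoter windows of that length, 32.7% held at least 1. None of these 7 promoters held an AP-1 motif (TGANTCA, in 6.75% of all windows) or a STAT motif (TTCNNNGAA, in 7.02%), and Pdgfc had the only TEAD motif (GGAATG, in 12.6%), both strands searched. G and C made up 72.4% of the Nrp2 window and 54.4% of the Pdgfra window, with a median of 52.4% over all windows. No match of 1 motif overlapped a match of another.

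**Figure D1:**
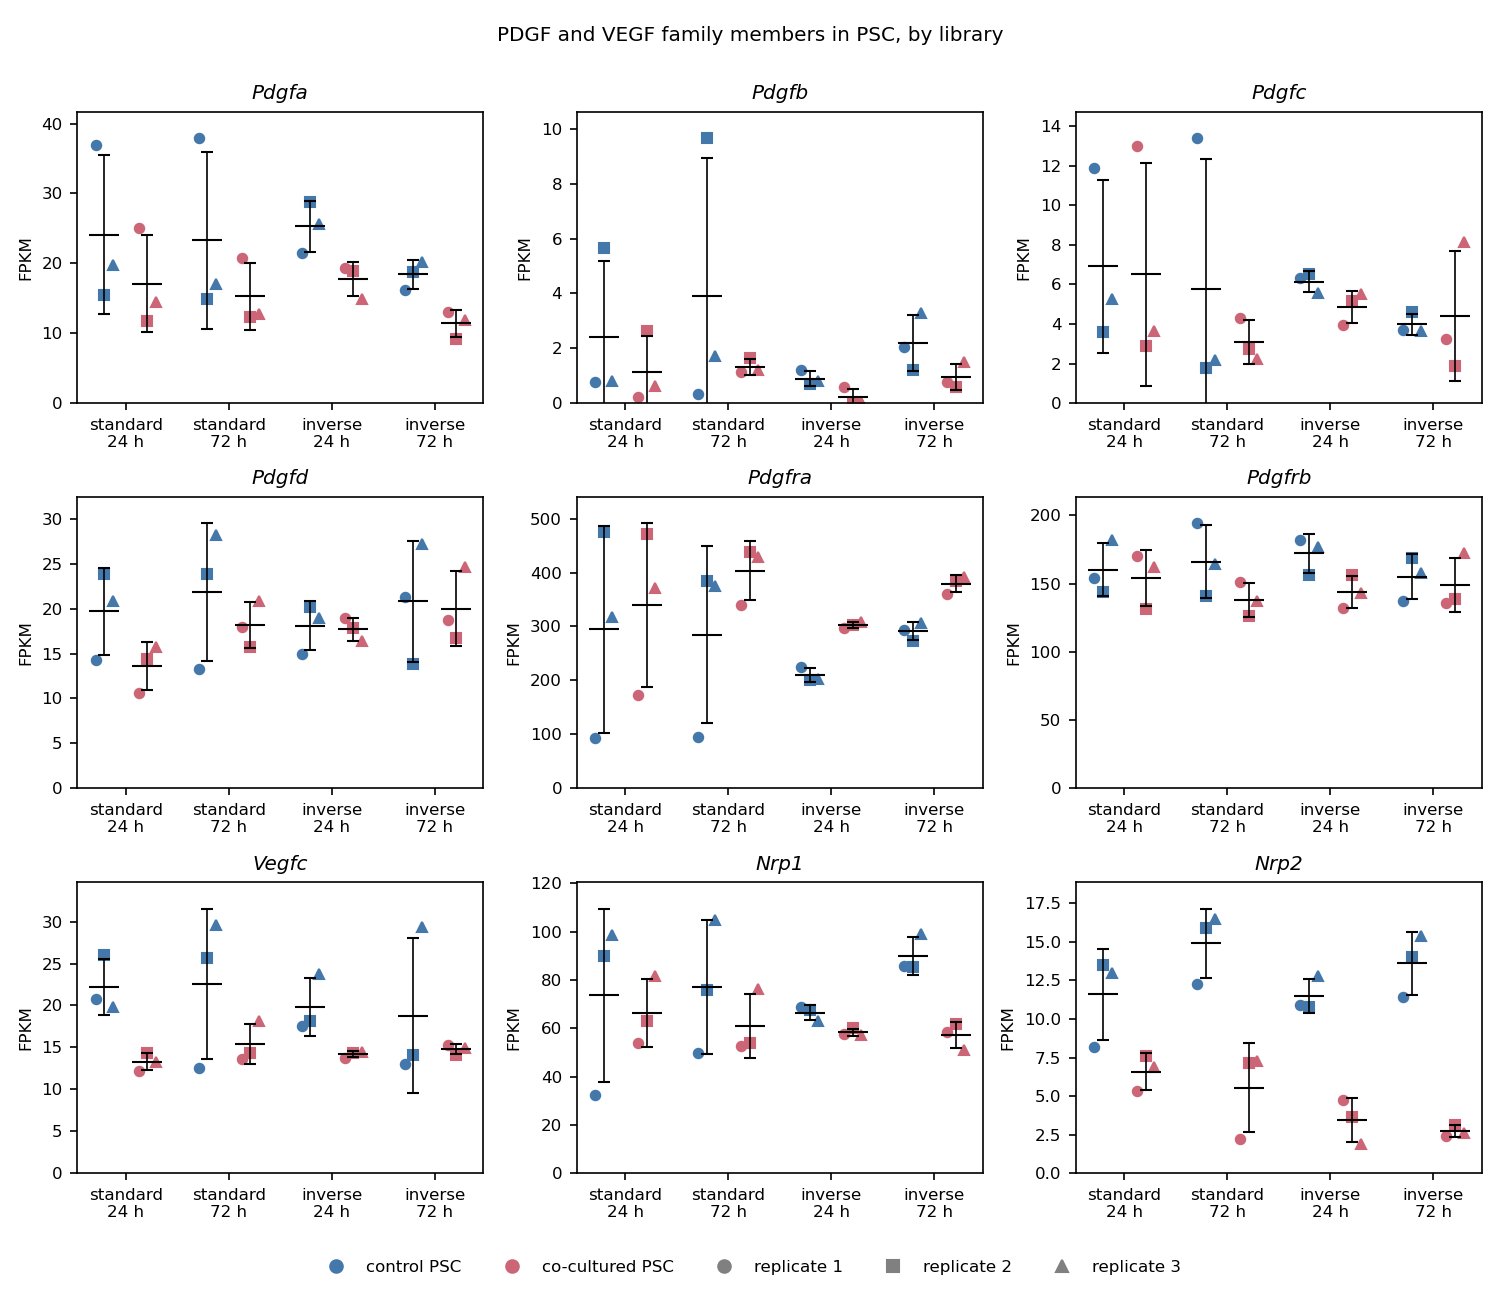
FPKM of the 9 genes in each of 24 libraries, by model and time (x axis), with controls in blue and co-cultured PSC in red; symbols give the replicate number, and the black line and bars give the mean ± SD (n = 3; bars are cut at 0). Nrp2 is lower in every co-cultured library than in every control of its own model and time, and the standard libraries numbered 1 have the highest Pdgfa and Pdgfc and the lowest Pdgfra and Nrp1 of each standard group.

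Nrp2, a co-receptor for VEGF-C and class 3 semaphorins (chromosome 1, 62703285 to 62818695, plus strand), was lower in co-cultured PSC in both models and at both times. In inverse co-culture at 24 h the controls had 10.9, 10.8 and 12.8 FPKM and the co-cultured PSC 4.73, 3.68 and 1.90 FPKM. At 72 h the inverse controls had 11.4, 14 and 15.4 FPKM and the co-cultured PSC 2.45, 3.16 and 2.65 FPKM. The groups did not overlap at either time. Nrp2 fell by 1.68 ± 0.27 (SE) on the log2(FPKM + 0.5) scale at 24 h (limma, adjusted p = 0.0184) and by 2.11 ± 0.17 at 72 h (adjusted p = 0.00269), the level at 72 h being 0.232 of the control. The call at 72 h held without any single library (highest adjusted p = 0.0261). The call at 24 h was lost without any 1 of the 3 controls or without the co-culture replicate 2 (highest adjusted p = 0.0991).

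In standard co-culture Nrp2 had 5.31, 7.59 and 6.91 FPKM at 24 h, against 8.20, 13.5 and 13 FPKM in the controls. At 72 h it had 2.21, 7.16 and 7.30 FPKM, against 12.3, 15.9 and 16.5 FPKM. These groups did not overlap either, but the log2 differences of -0.75 ± 0.25 (adjusted p = 1) and -1.49 ± 0.43 (adjusted p = 0.723) did not pass the test. With the replicate number as a block, which the standard libraries share, the adjusted p was 0.0537 at 24 h and 0.245 at 72 h. Without the libraries numbered 1 and with the block, the 24 h difference was -0.83 ± 0.12 (limma, adjusted p = 0.0088). That at 72 h was -1.11 ± 0.15 (adjusted p = 0.0818). Without the block, the same libraries gave an adjusted p of 0.411 at 24 h and 0.152 at 72 h. Both settings were chosen on seeing these data and leave only the libraries numbered 2 and 3, so a pass under them is no support.

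Nrp1, the other neuropilin (chromosome 8, 128358604 to 128503363), had a higher level per length than Nrp2 in every library. Inverse controls had 69.0, 67.4 and 63.1 FPKM at 24 h and 85.7, 85.2 and 99.1 FPKM at 72 h. Co-cultured PSC had 57.8, 60.0 and 57.2 FPKM at 24 h and 58.3, 61.8 and 51.2 FPKM at 72 h. Thus the co-cultured level was much alike at both times while the control level was higher at 72 h. Nrp1 fell by 0.65 ± 0.11 on the log2 scale at 72 h (limma, adjusted p = 0.013), a call that was lost without control replicate 3 or without co-culture replicate 1 (highest adjusted p = 0.0631). The 24 h difference was -0.19 ± 0.09 (adjusted p = 0.415), although the groups did not overlap. The change of the co-culture difference from 24 h to 72 h was -0.47 ± 0.14 (limma, adjusted p = 0.281). In the standard model the controls spread widely, from 32.5 to 98.5 FPKM at 24 h and from 49.8 to 105 FPKM at 72 h, and overlapped the co-cultured PSC. The log2 differences there were -0.02 ± 0.44 and -0.29 ± 0.29. Without the libraries numbered 1 and with the block, the 24 h difference was -0.39 ± 0.08 (limma, adjusted p = 0.0245). The 72 h difference was then -0.47 ± 0.12 (adjusted p = 0.171). Without the block, the same libraries gave an adjusted p of 0.598 at 24 h and 0.402 at 72 h.

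Vegfc (chromosome 8, 54077606 to 54187096) was 1 of several VEGF ligands with measured levels. In standard co-culture at 24 h it had 12.2, 14.3 and 13.3 FPKM, against 20.8, 26.0 and 19.8 FPKM in the controls, with no overlap. The log2 difference of -0.71 ± 0.15 did not pass without a block (adjusted p = 1) and passed with the replicate block, at -0.71 ± 0.10 (limma, adjusted p = 0.0356). Without the libraries numbered 1, the block gave -0.70 ± 0.11 (limma, adjusted p = 0.0111), and the adjusted p was 0.515 without the block. In standard co-culture at 72 h Vegfc had 13.6, 14.4 and 18.1 FPKM, and the controls had 12.5, 25.6 and 29.6 FPKM. There the groups overlapped through control replicate 1, and the log2 difference was -0.46 ± 0.33. It was -0.75 ± 0.17 without the libraries numbered 1 (limma, adjusted p = 0.219, and 0.108 with the block). In inverse co-culture at 24 h it had 13.8, 14.4 and 14.5 FPKM against 17.6, 18.1 and 23.8 FPKM (log2 difference -0.45 ± 0.14, adjusted p = 0.166). At 72 h the inverse co-cultures lay between 14.1 and 15.3 FPKM, and the controls at 13, 14.1 and 29.4 FPKM. The mean of co-cultured PSC was thus between 13.3 and 15.4 FPKM in all 4 settings.

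Pdgfra, the alpha receptor (chromosome 5, 75152292 to 75198215), was the only 1 of the 9 genes that rose with co-culture. In inverse controls it had 225, 201 and 203 FPKM at 24 h and 294, 273 and 306 FPKM at 72 h. Co-cultured PSC had 298, 302 and 308 FPKM at 24 h and 361, 384 and 392 FPKM at 72 h. Neither time showed overlap, and Pdgfra rose by 0.53 ± 0.09 at 24 h (limma, adjusted p = 0.0222) and by 0.38 ± 0.10 at 72 h (adjusted p = 0.0416) on the log2 scale. Leaving out a library ended the call for 4 of 6 libraries at 24 h (each of the controls and co-culture replicate 2) and for all 6 at 72 h, with log2 differences between 0.34 and 0.58. In the standard model the libraries numbered 1 had 92.4 and 94.9 FPKM as controls and 173 and 340 FPKM in co-culture, and the others between 318 and 475 FPKM. The log2 differences were 0.37 ± 0.67 at 24 h and 0.74 ± 0.54 at 72 h. Without the libraries numbered 1 these became 0.11 ± 0.24 and 0.19 ± 0.12, so that their size rested on 1 library number.

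Pdgfrb, the beta receptor (chromosome 18, 61045150 to 61085061), had small differences. Over all 24 libraries it lay between 126 and 194 FPKM. Its log2 differences were -0.05 ± 0.16 and -0.26 ± 0.15 in the standard model and -0.26 ± 0.11 and -0.05 ± 0.13 in the inverse model (24 h, then 72 h), and none passed the test (smallest adjusted p = 0.298). The standard values were -0.15 ± 0.17 and -0.21 ± 0.14 without the libraries numbered 1. At inverse 24 h the groups did not overlap, with control PSC at 182, 156 and 177 FPKM and co-cultured PSC at 132, 156 and 143 FPKM, the shared 156 FPKM being a rounded value. The ratio of Pdgfra to Pdgfrb within a library, which no scaling between libraries can move, was 1.24, 1.29 and 1.14 in inverse controls at 24 h and 2.25, 1.94 and 2.16 in co-culture. At 72 h it was 2.14, 1.61 and 1.93 in the controls and 2.65, 2.75 and 2.27 in co-culture. The ratio was thus higher in all inverse co-cultures than in controls of the same time. The ratio of Nrp2 to Nrp1 was lower instead, between 0.133 and 0.202 in the 6 inverse controls and between 0.0333 and 0.0818 in the 6 inverse co-cultures. With 3 libraries against 3, an exact permutation test cannot give a p under 0.1, and none was run on these ratios.

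**Figure D2:**
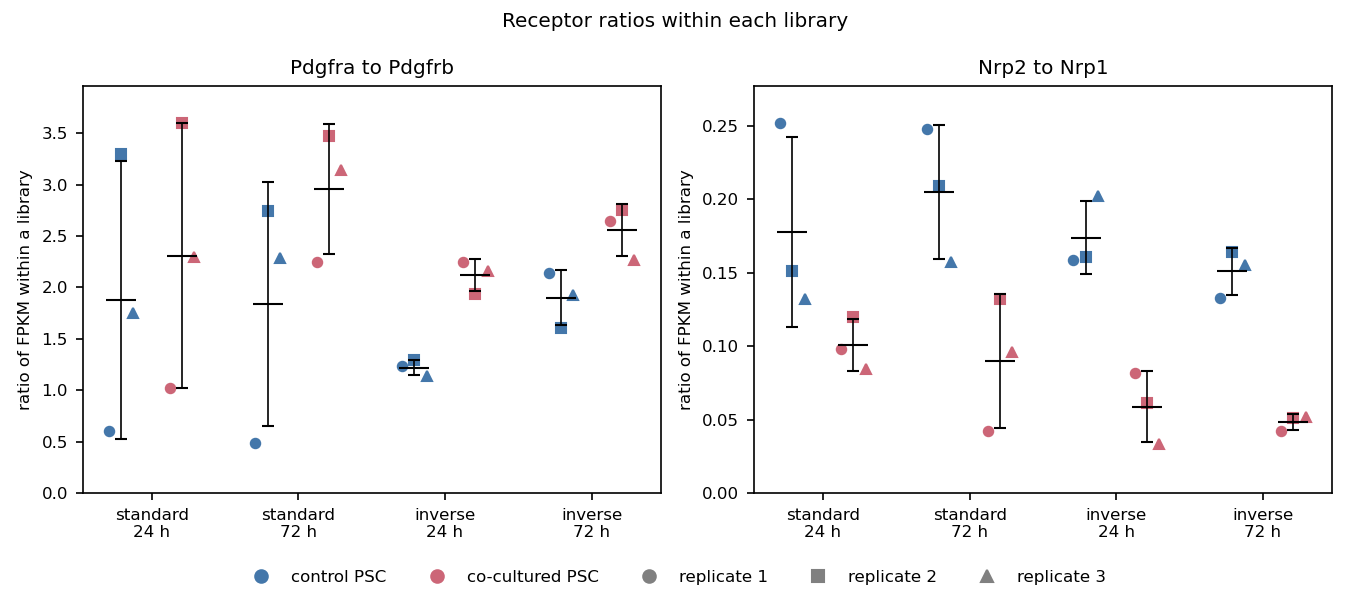
Ratio of FPKM within each library for Pdgfra to Pdgfrb (left) and Nrp2 to Nrp1 (right), by model and time, with controls in blue, co-cultured PSC in red and mean ± SD (n = 3) in black. In the inverse model at 24 h the Pdgfra to Pdgfrb ratio is 1.14 to 1.29 in controls and 1.94 to 2.25 in co-culture, and the Nrp2 to Nrp1 ratio is lower in co-culture in all 4 settings.

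Pdgfa, the A chain (chromosome 5, 138976014 to 138997370, minus strand), had 21.5, 28.8 and 25.6 FPKM in inverse controls at 24 h and 19.4, 18.9 and 14.9 FPKM in co-culture. At 72 h it had 16.2, 18.7 and 20.2 FPKM in controls and 13, 9.22 and 11.9 FPKM in co-culture. The groups did not overlap at either time. Pdgfa fell by 0.68 ± 0.16 at 72 h on the log2 scale (limma, adjusted p = 0.0333), a call lost without any 1 of the 3 controls, without co-culture replicate 1 or 2, and when libraries were scaled by the median of gene ratios (-0.52 ± 0.16, adjusted p = 0.0835). The 24 h difference was -0.50 ± 0.15 (adjusted p = 0.154). In the standard model Pdgfa was lower in co-culture than in the same-numbered control in 3 of 3 pairs at both times, by -0.46 ± 0.40 and -0.51 ± 0.39 without and ± 0.09 and ± 0.16 with the block (adjusted p = 0.0855 and 0.4). With the block and without the libraries numbered 1 they were -0.41 ± 0.10 and -0.34 ± 0.14 (limma, adjusted p = 0.0536 and 0.298). The standard controls numbered 1, which were lowest in Pdgfra, were highest in Pdgfa at 37.0 and 37.9 FPKM.

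Pdgfc, the C chain (chromosome 3, 81036416 to 81214040), had 6.35, 6.51 and 5.55 FPKM in inverse controls at 24 h and 3.95, 5.15 and 5.50 FPKM in co-culture, and the difference did not pass (log2 -0.31 ± 0.18, adjusted p = 0.478). At 72 h inverse co-culture replicate 3 was high at 8.14 FPKM, against 3.22 and 1.85 FPKM in the others, and the groups overlapped. In the standard model Pdgfc lay between 1.79 and 13.4 FPKM, with the libraries numbered 1 highest in every group. Its log2 differences there were -0.21 ± 0.64 at 24 h and -0.34 ± 0.70 at 72 h, and without the libraries numbered 1 they were -0.38 ± 0.25 and 0.26 ± 0.26, so that the sign at 72 h rested on those libraries. Pdgfd, the D chain (chromosome 9, 6168584 to 6378850), had small differences in the inverse model, of -0.02 ± 0.14 at 24 h and -0.02 ± 0.25 at 72 h on the log2 scale. In standard co-culture at 24 h it had 10.6, 14.4 and 15.7 FPKM, against 14.3, 23.8 and 20.9 FPKM. That difference of -0.51 ± 0.24 had an adjusted p in limma of 0.0944 with the block. Without the libraries numbered 1 the adjusted p was 0.0263 with the block (-0.55 ± 0.11) and 0.508 without it. At 72 h the standard difference was -0.20 ± 0.29, and without the libraries numbered 1 it was -0.51 ± 0.18 (limma, adjusted p = 0.32, and 0.184 with the block).

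Pdgfb, the B chain (chromosome 15, 79995874 to 80014977, minus strand), had the lowest level of the 9 genes, with a mean of 1.62 FPKM over all libraries. Of the comparisons of co-culture with control, it passed the filter on low values only in those at 72 h, so that 8 of the 9 genes were tested at 24 h. It also passed in the comparisons of controls over time. Inverse controls had 1.19, 0.683 and 0.807 FPKM at 24 h and 2.06, 1.22 and 3.27 FPKM at 72 h. Inverse co-cultures had 0.570, 0 and 0.0404 FPKM at 24 h and 0.749, 0.598 and 1.5 FPKM at 72 h. The groups did not overlap at 24 h, and the 72 h difference was -0.87 ± 0.39 on the log2 scale (adjusted p = 0.167). In each standard group the highest value was that of the library numbered 2, with 5.64 and 9.66 FPKM in controls and 2.62 and 1.65 FPKM in co-culture. Without the libraries numbered 1, the 72 h difference there was -1.32 ± 0.68, against -0.55 ± 0.86 with them. Those same 4 libraries had the highest summed macrophage markers of all 24, at 528 and 1320 FPKM in controls and 389 and 749 FPKM in co-culture, and the other libraries had between 25.8 and 249 FPKM. The order of the marker sums was not that of Pdgfb throughout. The standard 72 h co-culture with 749 FPKM of markers had 1.65 FPKM of Pdgfb, against 1.72 in a control with 181 FPKM of markers. Inverse 72 h co-culture replicate 3 had the lowest marker sum of its group (54.5 FPKM) and the highest Pdgfb (1.5 FPKM), and 24 h co-culture replicate 2 had 75.3 FPKM of markers and Pdgfb listed at 0. The part of the macrophage markers in the Pdgfb values was not tested.

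**Figure D3:**
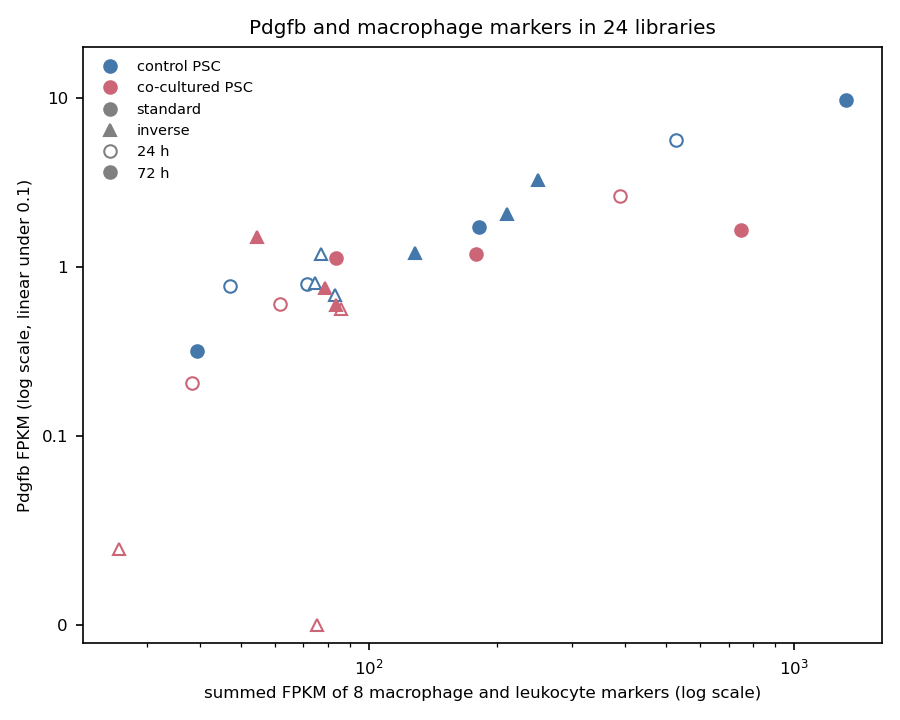
Pdgfb FPKM (y axis, log scale above 0.1) against the summed FPKM of 8 macrophage and leukocyte markers (x axis, log scale) in each of 24 libraries, with controls in blue and co-cultured PSC in red, circles for standard and triangles for inverse, open for 24 h and filled for 72 h. The library with the highest marker sum, 1320 FPKM, also has the highest Pdgfb, 9.66 FPKM.

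Markers of several cell types also moved in the inverse model. At 72 h summed macrophage markers were 128 to 249 FPKM in controls and 54.5 to 83.7 FPKM in co-culture, and 6 of 7 tested fell (Adgre1 passed the filter only through the controls). At 24 h these sums overlapped (74.5 to 83.0 FPKM in controls and 25.8 to 85.9 FPKM in co-culture) and 0 of 6 tested were called. Summed adipocyte markers (5 genes) were 420 to 899 FPKM in inverse controls at 72 h and 27.1 to 105 FPKM in co-culture, all 5 falling, and 174 to 263 and 93.4 to 217 FPKM at 24 h with 0 of 5 called. Summed mural cell markers (6 genes) were 102 to 179 FPKM in inverse controls and 39.9 to 48.0 FPKM in co-culture at 24 h, and 76.7 to 144 and 31.5 to 45.9 FPKM at 72 h. Of 3 mural genes tested, Mcam and Notch3 fell at both times. Summed stellate cell and fibroblast markers were 23900 to 26300 FPKM in inverse controls and 27100 to 32100 FPKM in co-culture at 24 h, and 21500 to 27500 and 29100 to 35000 FPKM at 72 h. Of 9 tested, the collagen gene Col3a1 rose by 0.59 ± 0.11 and the smooth muscle actin gene Acta2 fell by 1.01 ± 0.11 at 24 h on the log2 scale (limma, adjusted p = 0.0299 and 0.00514). At 72 h Lum, which encodes the matrix protein lumican, was the only 1 called and fell by 1.59 ± 0.23 (adjusted p = 0.00774). Beside these counts, 2.47% of all genes were called in inverse co-culture at 24 h (1.08% higher and 1.39% lower). At 72 h 12.8% were called (3.27% higher and 9.57% lower). The part of the stellate, mural, adipocyte, epithelial and macrophage markers in the changes of the 9 genes was not tested.

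Counted over the 9 genes, no gene was called in standard co-culture at 24 h (of 8 tested) or 72 h (of 9 tested). Over all genes, limma without a block called 0% in both of these comparisons, with 371 and 800 genes at an unadjusted p under 0.05, and 2 and 1 of the 9 genes among them. voom on recovered fragments also called 0. With the replicate block 1.22% of all genes were called at 24 h, with 1 of 8 (Vegfc), and 0.00777% at 72 h, with 0 of 9. In inverse co-culture at 24 h, 2 of 8 were called and 2.47% of all genes, namely Pdgfra higher (1.08% of all genes) and Nrp2 lower (1.39%). Scaling by the median of gene ratios changed the calls over all genes there from 139 higher and 178 lower to 179 and 145. In inverse co-culture at 72 h, 4 of 9 were called and 12.8% of all genes, with Pdgfra higher (3.27% of all genes) and Pdgfa, Nrp1 and Nrp2 lower (9.57%). The median log2 difference of all genes tested there was -0.16, and that scaling moved it to -0.01 and the calls from 427 higher and 1251 lower to 746 and 686. After that scaling Pdgfra (0.54 ± 0.09), Nrp1 (-0.49 ± 0.11) and Nrp2 (-1.96 ± 0.17) were still called. The inverse calls of Nrp2 at 24 h, of Pdgfra at both times and of Pdgfa at 72 h were lost with no filter on low values, with all 24 libraries in one model and with the replicate block, and that of Nrp1 at 72 h with all 24 libraries. The median log2 difference of the genes tested among the 9 was -0.34 in both standard comparisons, and -0.29 and -0.24 in the inverse ones (24 h and 72 h), against -0.01, -0.09, -0.06 and -0.16 over all genes.

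Groups did not overlap for 2 of 8 genes in standard co-culture at 24 h (7.73% of all genes tested) and for 1 of 9 at 72 h (13.1%). In inverse co-culture they did not overlap for 7 of 8 genes at 24 h (21.2% of all genes), all but Pdgfd, and for 4 of 9 at 72 h (38.3%). The share at 72 h was thus near that of all genes.

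**Figure D4:**
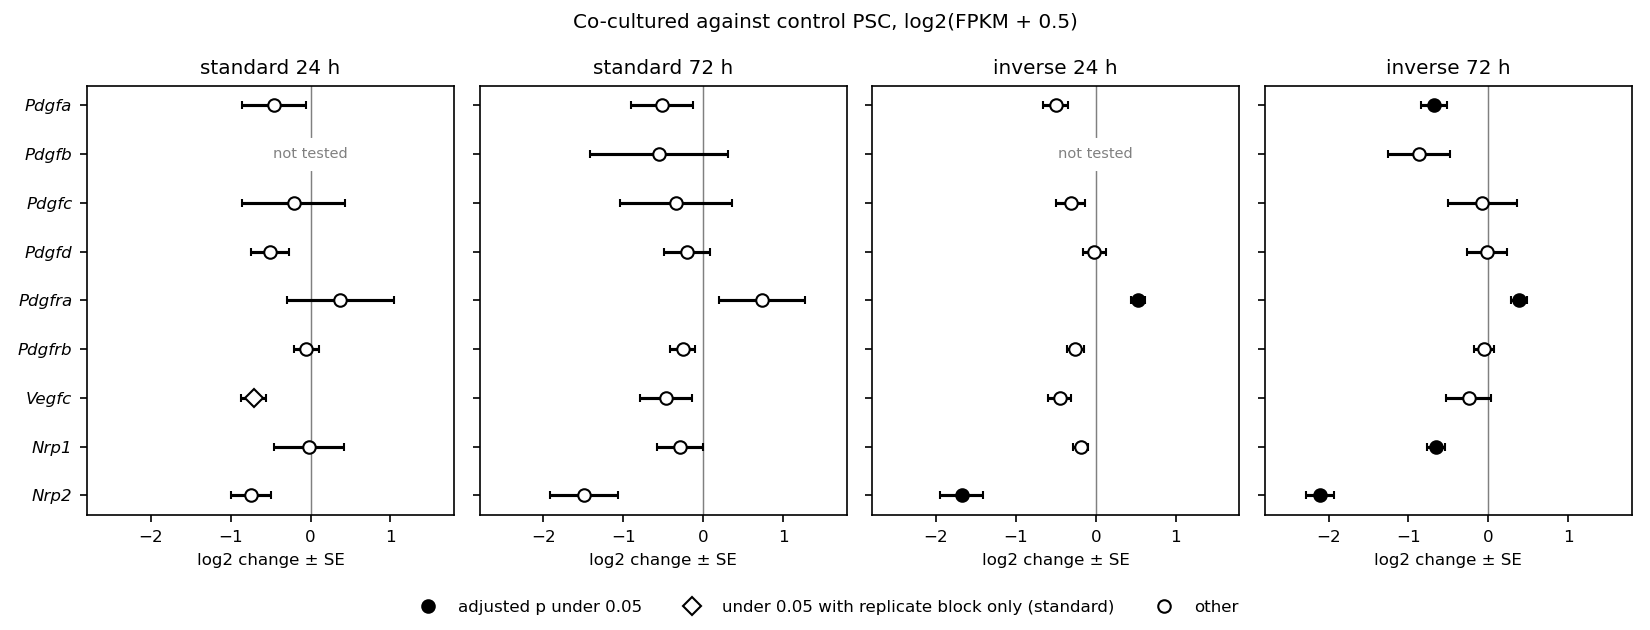
Log2 change ± SE of the 9 genes in co-cultured against control PSC, on log2(FPKM + 0.5), in 4 comparisons of 3 against 3 libraries; filled points passed an adjusted p of 0.05 in limma without a block, and the diamond (Vegfc, standard 24 h) passed with the replicate block only. Nrp2 lies between -2.11 and -0.75, and Pdgfra is the only gene above 0 in all 4 panels.

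Whether the co-culture difference itself differed between the models was tested directly. None of the 9 genes was called at 24 h or 72 h, and neither was any other gene (0% at 24 h and 0% at 72 h), with 182 and 501 of 14452 genes at an unadjusted p under 0.05 and 0 of the 9 among them at both times, and no call by voom. For Nrp2 the inverse difference was lower than the standard difference by -0.93 ± 0.46 at 24 h (adjusted p = 1) and by -0.62 ± 0.46 at 72 h (adjusted p = 0.997). Without the libraries numbered 1 these were -0.85 ± 0.33 and -0.997 ± 0.33 (unadjusted p in limma = 0.0195 and 0.00765, adjusted p = 1 and 0.771). For Pdgfra the difference between the models was 0.16 ± 0.70 at 24 h and -0.36 ± 0.70 at 72 h. The inverse difference at 72 h against that at 24 h also gave no call among the 9 genes or among all genes (0%), with 1471 genes at an unadjusted p under 0.05, of which Nrp1 was the only 1 of the 9, and no call by voom.

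Control PSC of the inverse model changed over time, with 19.2% of all genes called between 24 h and 72 h (10.2% higher and 9.05% lower at 72 h). Of the 9 genes, Pdgfra rose by 0.47 ± 0.09 (limma, adjusted p = 0.00879) and Nrp1 by 0.43 ± 0.09 (adjusted p = 0.0154), and Pdgfc fell by 0.57 ± 0.16 (adjusted p = 0.0399) on the log2 scale. In the inverse model Pdgfra therefore rose both with co-culture and with time in culture. Its 72 h controls there (273 to 306 FPKM) lay at about the level of the 24 h co-cultures (298 to 308 FPKM). Mean Pdgfra of standard controls was 295 FPKM at 24 h and 285 FPKM at 72 h. Nrp1 had a positive difference over time in inverse controls and a negative one with inverse co-culture. Cell type markers moved over the same time. Of the macrophage markers 6 of 7 tested and of the adipocyte markers 5 of 5 were called higher at 72 h. Of 9 stellate cell and fibroblast markers Thy1, Vim, Des and Acta2 were called lower and Col3a1 higher. The part of these markers in the changes over time was not tested. The comparisons of co-culture and of time share the control libraries, so the values are only set side by side. Leaving out a library kept the Pdgfra call in 6 of 6 cases and the Nrp1 call in 5 of 6 (lost without the 24 h control replicate 2, adjusted p = 0.0521), and the Pdgfc call in 1 of 6. It was lost without any 24 h control and without 72 h control replicate 1 or 3. Pdgfa (-0.45 ± 0.14, adjusted p = 0.0516), Pdgfb (0.89 ± 0.34, adjusted p = 0.0973) and Nrp2 (0.22 ± 0.14, adjusted p = 0.305) did not pass in limma. Pdgfb passed the filter mainly through the 72 h controls, where it was high. With voom, Pdgfa (-0.47 ± 0.15, adjusted p = 0.0402) and Pdgfb (1.30 ± 0.41, adjusted p = 0.0406) were called. With all 24 libraries in one model none of the 3 calls over time held, and that of Pdgfc was also lost with no filter and with the block. In standard controls none of the 9 genes was called over time and 0% of all genes were, with 127 genes at an unadjusted p under 0.05 and no call by voom.

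When the 8 group means of a gene were put in order, the 4 co-cultures held the lowest 4 places for Pdgfa, Pdgfrb, Vegfc, Nrp1 and Nrp2, and the highest 4 places for Pdgfra. Nrp2 ran from 2.75 ± 0.37 FPKM (SD, n = 3) in inverse co-culture at 72 h, through 3.44 ± 1.43, 5.56 ± 2.9 and 6.60 ± 1.17 in the other co-cultures, to 11.5 ± 1.08, 11.6 ± 2.94, 13.6 ± 2.02 and 14.9 ± 2.25 FPKM in the controls. Of its 7 neighbouring pairs, 6 overlapped, and the gap between the highest co-culture and the lowest control did not. For Pdgfa, Pdgfc, Pdgfra, Pdgfrb, Vegfc and Nrp1 all 7 neighbouring pairs overlapped. For Pdgfb and Pdgfd the lowest group alone, inverse 24 h co-culture and standard 24 h co-culture, lay apart from the next. By mean FPKM, the receptors Pdgfra (313) and Pdgfrb (155) were highest, followed by Nrp1 (68.7), and Pdgfa (19.1), Pdgfd (18.7) and Vegfc (17.6) were close to each other. Nrp2 (8.74), Pdgfc (5.21) and Pdgfb (1.62) were lowest.

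The rest of the pathway was followed by gene lists. Among the 3 other VEGF ligands listed, Vegfd, which like Vegfc acts on lymphatic vessels, had the highest level, with 770, 873 and 1050 FPKM in inverse controls at 72 h and 548, 607 and 393 FPKM in co-culture. It fell by 0.81 ± 0.19 on the log2 scale (limma, adjusted p = 0.0336), as did Vegfb, by 0.67 ± 0.14 (adjusted p = 0.023). In standard co-culture at 24 h Vegfd fell by 0.75 ± 0.08 with the replicate block (adjusted p = 0.02) and did not pass without it (± 0.45, adjusted p = 1). Of the VEGF receptor kinases, Flt1 had 0.657 to 3.24 FPKM, while Kdr did not exceed 0.251 FPKM and Flt4 not 0.424 FPKM. Pdgfrl, a receptor-like gene without a kinase, fell by 1.05 ± 0.21 in inverse co-culture at 72 h (adjusted p = 0.021).

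Plexins are semaphorin receptors, and some of them work with neuropilins. Of 8 plexins tested, 0 were called in inverse co-culture at 24 h. At 72 h 2 fell, where 9.57% of all genes were called lower (list median -0.24, all genes -0.16). Plxna2 had 4.02, 4.14 and 4.13 FPKM in controls and 0.606, 0.777 and 0.05 FPKM in co-culture (log2 -2.32 ± 0.36, adjusted p = 0.00893). It passed the filter at 72 h only through the controls, where it was high, so its call does not support the count. Plxnd1 had 261, 251 and 235 FPKM in controls and 94.7, 115 and 71.4 FPKM in co-culture (log2 -1.43 ± 0.17, adjusted p = 0.00489). Of 7 class 3 semaphorins none was called in either inverse comparison, with list medians of 0.05 and -0.15. The largest difference was that of Sema3a at 72 h, 1.13 ± 0.36 (adjusted p = 0.0785). Of 9 proteases tested that cut PDGF or VEGF precursors, Plat, the plasminogen activator that cuts the C chain, rose in inverse co-culture by 1.11 ± 0.11 at 24 h (adjusted p = 0.00462) and by 0.93 ± 0.14 at 72 h (adjusted p = 0.00843). Pcsk5 rose by 1.12 ± 0.17 and Pcsk6 fell by 0.74 ± 0.12 at 24 h (adjusted p = 0.0159 and 0.0192). Of 19 adaptors and effectors of the receptors, Pik3r1, the regulatory subunit of PI3-kinase, fell at both times, by 0.70 ± 0.12 and 1.38 ± 0.14 (adjusted p = 0.0266 and 0.00385), and the other 18 were not called. Of 10 attenuators and co-receptors, 1 was called in inverse co-culture, the receptor phosphatase Ptprj, which rose at 72 h by 0.95 ± 0.13 (adjusted p = 0.00723). Shares called among all genes stand beside these counts. They were 2.47% at 24 h (1.08% higher and 1.39% lower) and 12.8% at 72 h (3.27% higher and 9.57% lower). The 1 of 10 called at 72 h is near the 12.8%. In standard co-culture no gene of these lists was called without the block, and with it only Vegfd and Vegfc at 24 h.

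The genes whose log2(FPKM + 0.5) ran most alike over the 24 libraries are given as a description. For Nrp2 they were Myo10 (Pearson r = 0.926) and Enpp4 (r = 0.923), and for Nrp1 Tmem106b (r = 0.918) and Rab30 (r = 0.917). For Pdgfra they were Gabra3 (r = 0.97) and Scarb2 (r = 0.959), which dropped to 0.904 and 0.877 over the 20 libraries left without the standard ones numbered 1. For Pdgfrb they were Map4 (r = 0.889) and Fam129a (r = 0.856). For Pdgfa they were Dstn (r = 0.945) and Myl9 (r = 0.941), for Pdgfc Pias2 (r = 0.935) and Actn1 (r = 0.933), and for Pdgfd Pmp22 (r = 0.872) and Pamr1 (r = 0.853). For Pdgfb they were Lair1 (r = 0.921) and Bin2 (r = 0.905), and for Vegfc Gyg (r = 0.867) and Rcan2 (r = 0.833). All points share the normalization to library totals, and groups are among them, so these values hold co-culture, time and library differences together.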

How the data were processed

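RNA of PSC was sequenced in 24 libraries (8 groups of 3). The authors aligned reads with HISAT2 2.0.5 to GRCm38.p6, counted fragments with featureCounts 1.5.0-p3 and deposited FPKM values. Default counting disregards strand, and Pdgfa, Pdgfc and Pdgfra have overlapping genes on the other strand (at most 2.29 FPKM on average), whose reads cannot be told apart. The release of the annotation is not given in the sources used here.

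limma 3.58.1 (R 4.3.3) was run on log2(FPKM + 0.5) as a two-sided moderated test with intensity trend. The added 0.5 understates changes of low genes. A gene was tested where 3 or more of the libraries compared exceeded an FPKM of 1, and Benjamini-Hochberg adjustment ran over all of them, with a threshold of 0.05. Fits of co-culture against control held 6 libraries, those of the difference between models all 24, and that of the inverse times 12. Whole fragments were recovered for 14450 of 14452 genes (within 0.02 of a whole number) by searching for each gene's length, and voom on them called 0, 0, 468 and 2065 genes (standard 24 h and 72 h, inverse 24 h and 72 h) against 0, 0, 317 and 1678. Replicate numbers were taken to pair the standard libraries, since same-numbered ones deviated together from their group means (r of at least 0.48 in each pair and comparison), a pairing that comes from the data and not from the labels. The paper names 3 biological replicates per group. Neither it nor the labels say that these are separate isolations, so p-values measure the spread between these samples. Gene positions are from GENCODE M21 (GRCm38). Alternatives were pseudocounts of 1 and 0.1, no filter, median-ratio scaling, all 24 libraries in one model, the replicate block, voom, and each library left out. Fits were tested on simulated data. Named genes were the 9 members, called or highly expressed genes of the lists, and the 2 genes most alike to each member. The members and lists were chosen with earlier results of these data known. A gene of the lists is not reported here. Python 3.11.15 with numpy 2.4.6, pandas 2.3.3 and matplotlib 3.10.9 made tables and plots.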

Additional observations from a re-analysis of the deposited data

How the results depend on the processing

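All 9 calls among the 9 genes kept their direction under all 117 alternatives computed for them, and 71 of these also passed the test, so that a call was lost in 46. No change of a single gene reversed with either value called, and 107 of 1274 alternatives changed the sign of a value with neither called. In 11 alternatives a change not called in the report was called. With no filter on low values, 0 of the 9 were called at inverse 24 h (2 in the report) and 2 at inverse 72 h (4 in the report). With all 24 libraries in one model, 0 were called at 24 h, 1 at 72 h and 0 in inverse controls over time (3 in the report). In those controls voom called 5 of 9, beside 2943 of 13090 genes. With the replicate block, 1 was called in standard co-culture at 24 h, and 0 and 2 in the inverse comparisons (24 h, then 72 h), and in inverse controls Pdgfc lost its call and Pdgfa gained one. In the inverse model the correlations of same-numbered deviations lay between -0.17 and 0.15, and the labels do not say what a shared number stands for. Whether the block suits these libraries was not tested. Without the standard libraries numbered 1 and with the block, 4 of 8 were called in standard co-culture at 24 h (Nrp1, Nrp2, Pdgfd and Vegfc). Beside them 967 of 12488 genes were called. Without the block, the same libraries gave 0 calls among the 8 and 0 among all genes. Leaving out each library gave 0 to 2 calls in inverse co-culture at 24 h, 1 to 3 at 72 h and 1 to 3 in inverse controls over time. With 3 libraries per group, depth limits Pdgfb most (0 to 816 fragments per library), and Nrp2 rests on 348 to 4156 fragments. Over all genes, 317 were called at inverse 24 h and 1678 at 72 h, against 50 and 888 with no filter, 12 and 940 with all 24 libraries in one model, and 88 and 902 with the block. The 2516 calls in inverse controls became 1425 with no filter and 236 with all 24 libraries. In standard co-culture 0 became 157 and 1 with the block, 5 and 45 with all 24 libraries, and 967 and 1 with the block and without the libraries numbered 1, which gave 68 calls in standard controls. The 0 calls for the inverse times became 2 with a pseudocount of 1 and 4 with no filter. For the difference between the models they became 2 (24 h) and 5 (72 h) with no filter, and 1 at 24 h without the standard libraries numbered 1. Leaving out 1 library gave 67 to 412 calls at inverse 24 h (fewest without control replicate 3), 368 to 1637 at inverse 72 h (fewest without control replicate 3), 1243 to 2369 in inverse controls (fewest without 24 h replicate 2) and 0 to 75 for the inverse times (most without 24 h co-culture replicate 3). The causes of these shifts were not tested.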

Other observations

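The mix of A and D chain transcripts within a library is given by their FPKM ratio, with no test. The ratio of Pdgfa to Pdgfd was 1.44, 1.42 and 1.35 in inverse controls at 24 h and 1.02, 1.06 and 0.909 in co-culture. At 72 h it was 0.762, 1.35 and 0.742 in controls and 0.694, 0.553 and 0.483 in co-culture, so that every co-culture lay under every control of its own time. In the standard model the ratio was 2.58 and 2.85 in the controls numbered 1 and between 0.605 and 0.951 in the other controls, and the groups overlapped. Flt1, a VEGF receptor, had 1.23, 1.67 and 1.44 FPKM in inverse controls at 72 h and 2.37, 2.50 and 2.51 FPKM in co-culture, a log2 difference of 0.61 ± 0.23 that did not pass the test (limma, adjusted p = 0.11).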
